A study of Mus musculus with 11 samples.

Results

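The libraries described here are hippocampal RNA libraries from mice that had received insulin through the nose 1 h earlier (n = 3), set against libraries from mice given saline (n = 3). They are 6 of the 11 libraries of the study, whose design text names insulin exposure and lipid metabolism in the brain as its subject. All mice were males of the strain labelled C3-C57B1/6J, aged 2 to 3 months and bought from Jackson. Insulin was dosed at 2.4 IU per nare and the brain was removed under isoflurane. The control libraries are titled saline, but are labelled as untreated, with a time of 0 min, so insulin cannot be told apart from dosing, handling or time of sampling. Libraries taken 15 min after insulin (n = 2, replicates 1 and 3) and 6 h after it (n = 3) enter the same model. A 15 min replicate 2 is not among the 11 libraries. The labels speak of 3 animals per time but do not tie each library to its own animal, so the tests rest on the variation among libraries, which may be technical.

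Each gene row carries a log2 signal that the authors quantile-normalized between libraries, so 1 unit is a 2-fold difference and every library has the same maximum. Of 46202 rows, 27467 were tested at 1 h against saline after the lowest 40% by mean signal were left out. The 1 h libraries had a value for 32448, 32133 and 32640 rows, against 33505, 32941 and 33510 rows in the saline libraries. The sequencing depth of each library is unknown. All 13 listed markers of hippocampal pyramidal neurons and all 13 of dentate granule neurons were measured. Column names carry running numbers by group, and what that order stands for cannot be told apart from insulin. The saline library of replicate 1 stood apart: its 18S ribosomal RNA row, Rn18s-rs5, lay at 16.00, the maximum that every library shares, and it was the highest saline library in most of the largest falls, given below with and without it.

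Insulin acts on a receptor tyrosine kinase that signals through IRS adaptors, PI3K and AKT, and in many tissues it keeps FOXO transcription factors out of the nucleus. Immediate early genes are transcription factor and signalling genes whose RNA appears within minutes of a stimulus, without new protein synthesis, and in hippocampal neurons they follow synaptic activity. Glucocorticoids, the adrenal stress hormones, raise a separate set of transcripts through a nuclear receptor that is abundant in this tissue. The 3 kinds of response were read through gene lists, which are described below by their counts and medians beside all rows tested. The lists were chosen with earlier results of these data known, so their counts and medians are descriptions, not independent tests.

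Some Krüppel-like factors, AP-1 factors, Nr4a receptors and glucocorticoid responsive genes were higher 1 h after insulin. The 1 h signal exceeded that with saline 3.84-fold for Klf4, 3.45-fold for Klf2, 3.39-fold for Fosb, 3.29-fold for Zbtb16 and 2.56-fold for Fos. Lower signals were more numerous, and they included Il31ra, Cd44, Lars2 and Gphn, each over 8-fold lower, together with the 18S ribosomal RNA row and several very long neuronal genes. In all, 245 rows passed a Benjamini-Hochberg adjusted p of 0.05 by limma, 0.892% of those tested: 36 rose (0.131%) and 209 fell (0.761%). The groups did not overlap for any of the 245. Over all rows tested, 6.51% had every 1 h library above every saline library and 21.2% had every 1 h library below, with a median log2 change of -0.11. At an unadjusted p under 0.05, 783 rows were higher (2.85%) and 3539 lower (12.9%), the shares against which such counts for gene lists are to be read.

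The size of this response depended on single libraries and on the scaling. The count of 245 was 42 without 1 h replicate 1, 66 without 1 h replicate 2, 59, 86 and 67 without saline replicate 1, 2 and 3, 155 without 6 h replicate 3 and 491 without 6 h replicate 2. The share of rises among the calls was 14.7% as deposited, 46.8% with each library shifted to a common median over rows complete in all libraries, and 29.4% after cyclic loess. That shift moved the median log2 change of all rows to 0.03, and list medians are therefore given relative to the median of all rows.

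**Figure D1:**
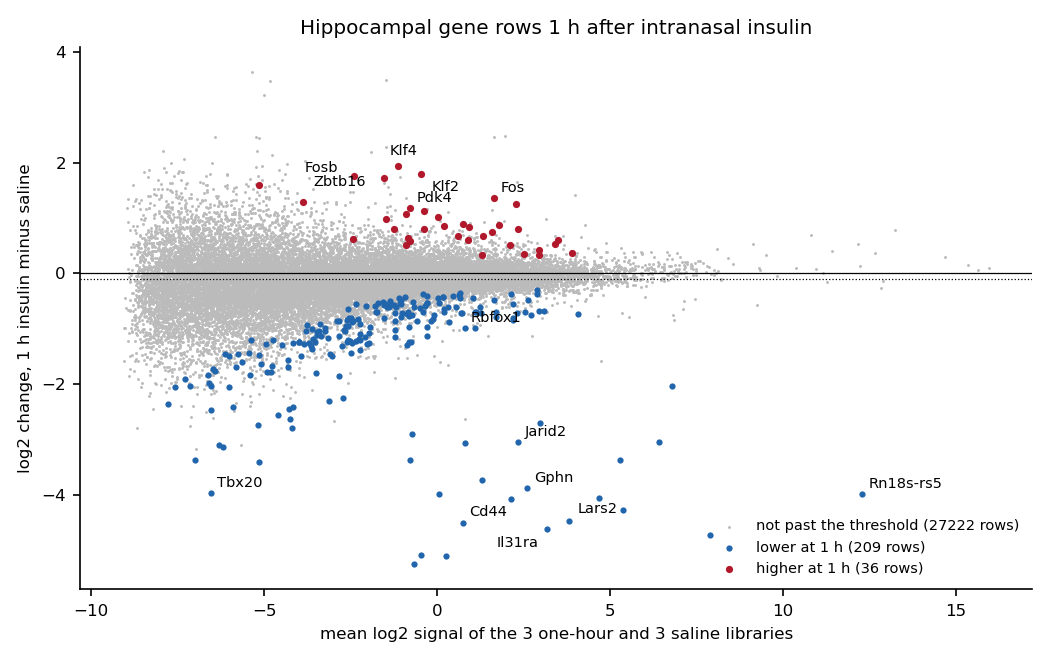
Log2 change (1 h insulin minus saline, vertical axis) against the mean log2 signal of the 6 libraries (horizontal axis) for the 27467 rows tested, with the 36 rises in red and the 209 falls in blue. The dotted line is the median of all rows, -0.11; the falls reach further from 0 than the rises, and a group of abundant rows lies below -2.

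Among the Krüppel-like factors, zinc-finger regulators that include genes of vessel, immune and metabolic control, 3 of 10 rose. Klf4 had log2 signals of -0.21, 0.020 and -0.32 at 1 h, against -1.98, -2.35 and -2.0 with saline. Every 1 h library lay more than 1 unit above every saline library (log2 change 1.94, SE 0.13, limma adjusted p = 0.00132). Klf2 stood at 0.59, 0.49 and 0.18 at 1 h, against -1.29, -1.45 and -1.36 with saline, again with a wide gap between the groups (log2 change 1.79, SE 0.19, adjusted p = 0.00373). Klf15, a glucocorticoid responsive member that controls amino acid and lipid use, changed less: 1.62, 1.74 and 1.59 at 1 h, against 0.93, 0.86 and 1.14 with saline (log2 change 0.67, SE 0.09, adjusted p = 0.0117). The call of Klf15 was lost without 1 h replicate 1 or 2 or saline replicate 1 or 2, at adjusted p of up to 0.0656; those of Klf4 and Klf2 held without each library in turn. The list's median log2 change lay 0.62 above that of all rows, and 6 of its 10 members had every 1 h library above every saline library.

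AP-1 factors bind DNA as Fos and Jun dimers, and Fos is the standard marker of recently active neurons. Fos had log2 signals of 2.46, 2.47 and 2.02 at 1 h, against 1.00, 0.98 and 0.90 with saline. The groups were a full unit apart and the call held without each library in turn (log2 change 1.36, SE 0.12, adjusted p = 0.00205). Fosb, which encodes a partner of Jun proteins and its longer-lived deltaFosB form, stood at -1.49, -1.48 and -1.60 at 1 h, against -3.41, -3.26 and -3.18 with saline. The groups of Fosb did not overlap (log2 change 1.76, SE 0.23, adjusted p = 0.00954), although the call was lost without 1 h replicate 1 or saline replicate 1, at adjusted p of up to 0.0567. Of the 10 AP-1 genes these 2 passed; all 10 had a log2 change above the median of all rows, and the list's median lay 0.96 above it. Jun, the main partner of Fos, had log2 signals of 2.96, 2.82 and 3.25 at 1 h, against 3.04, 2.86 and 3.08 with saline, and the groups overlapped.

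The promoters of the 4 early factors with the smallest p are shown because a short stretch that they share can be read in them. Each runs from 250 bases before to 50 after the RefSeq start site on GRCm38.p6, 5′ to 3′ on the gene's strand, and capitals mark TGACG or its reverse complement CGTCA, the core of the site bound by CREB, a factor that cyclic AMP and calcium signals activate.
Fos, chr12:85473640-85473939, plus strand: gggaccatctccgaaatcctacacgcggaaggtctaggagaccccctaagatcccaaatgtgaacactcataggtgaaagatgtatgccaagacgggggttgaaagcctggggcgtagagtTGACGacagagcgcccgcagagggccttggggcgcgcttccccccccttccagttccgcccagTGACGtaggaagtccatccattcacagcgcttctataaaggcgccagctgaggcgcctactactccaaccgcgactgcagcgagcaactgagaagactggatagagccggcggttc
Fosb, chr7:19309996-19310295, minus strand: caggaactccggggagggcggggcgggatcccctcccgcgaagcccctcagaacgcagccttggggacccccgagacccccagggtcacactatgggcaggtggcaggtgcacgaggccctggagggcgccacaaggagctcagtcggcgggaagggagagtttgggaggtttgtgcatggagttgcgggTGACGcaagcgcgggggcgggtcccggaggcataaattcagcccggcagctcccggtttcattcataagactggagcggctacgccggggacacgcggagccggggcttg
Klf2, chr8:72318812-72319111, plus strand: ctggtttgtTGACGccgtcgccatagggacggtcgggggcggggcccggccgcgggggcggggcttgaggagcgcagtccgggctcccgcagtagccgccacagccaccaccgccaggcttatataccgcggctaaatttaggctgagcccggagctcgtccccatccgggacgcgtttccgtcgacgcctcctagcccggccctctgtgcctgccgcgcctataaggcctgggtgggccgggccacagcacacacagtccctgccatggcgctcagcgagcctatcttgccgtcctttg
Klf4, chr4:55532426-55532725, minus strand: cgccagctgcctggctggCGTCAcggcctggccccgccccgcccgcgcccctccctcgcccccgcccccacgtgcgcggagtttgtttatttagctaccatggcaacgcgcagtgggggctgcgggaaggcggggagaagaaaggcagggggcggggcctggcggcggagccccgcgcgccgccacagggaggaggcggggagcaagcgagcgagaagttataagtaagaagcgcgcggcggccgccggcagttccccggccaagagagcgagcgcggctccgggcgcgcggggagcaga

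In these windows the Fos matches begin 129 and 66 bases before the start site, the Fosb match 60, the Klf2 match 241 and the Klf4 match 232. A window was at hand for 24 of the 36 rises, 112 of the 209 falls and 15756 of the rows tested. TGACG, searched on both strands and chosen after the rises were known, was in 11 of the 24 rises (45.8%), 27 of the 112 falls (24.1%) and 28.9% of the rows tested. The full CREB site TGACGTCA, which contains TGACG, was in 1 rise (Arl4d), 1 fall and 2.8% of rows tested. The AP-1 site TGACTCA was in 1 rise (4.2%), 11 falls (9.8%) and 5.2% of rows tested, and the serum response element, or CArG box, in 0 rises, 0 falls and 1.6%. The glucocorticoid receptor core ACANNNTGT was in 2 rises, Sgk1 and Znfx1, 6 falls (5.4%) and 6.4% of rows tested, and the FOXO site GTAAACA in 1 rise, 2 falls and 3.4%. The heat shock element GAANNTTC was in 2 rises, 11 falls (9.8%) and 7.9% of rows tested. TATAAA was in 4 rises, Fos, Nfkbia, Nr4a2 and Sgk1, 17 falls (15.2%) and 11.3% of rows tested. A match describes letters in these windows and is not evidence of binding. Bases more than 250 before the start site were not searched, so a gene without a match may hold the site there.

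The Egr and Nr4a factors are early transcription factors too, and the Nr4a members are nuclear receptors without a known hormone. Of 11 genes, 2 rose. Nr4a2 had log2 signals of -0.49, -0.12 and -0.48 at 1 h, against -1.52, -1.46 and -1.35 with saline (log2 change 1.08, SE 0.18, adjusted p = 0.0245). Nr4a1 stood at -0.46, -0.65 and -0.47 at 1 h, against -1.05, -1.33 and -1.10 with saline, a smaller step between groups that likewise did not overlap (log2 change 0.64, SE 0.10, adjusted p = 0.0238). The call of Nr4a1 was lost without any of the 6 libraries compared (adjusted p of up to 0.109), and that of Nr4a2 without any but 1 h replicate 3 (up to 0.115). Egr1, a factor of synaptic plasticity, did not pass at 1.92, 2.33 and 2.24 at 1 h, against 0.86, 1.02 and 1.18 with saline (log2 change 1.14, adjusted p = 0.103). Its groups were apart, and it passed without 6 h replicate 2 (adjusted p = 0.028) and with the 2 groups alone (0.0231). Egr4, named after its values were seen, had the largest change of the list (2.19, SE 0.56, adjusted p = 0.102), with 1 h values spread from -1.43 to 0.037. The list's median lay 0.98 above that of all rows.

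Of 22 effectors that act downstream of synaptic activity, 7 had every 1 h library above every saline library and 1 every one below, 4 were higher and 0 lower at an unadjusted p under 0.05, and 1 rose: Arl4d, a small GTPase of the ARF family, at 2.82, 2.94 and 2.97 at 1 h, against 1.44, 1.24 and 2.30 with saline (log2 change 1.25, SE 0.24, adjusted p = 0.0448). Saline replicate 3 was closest to the 1 h libraries, and when single libraries were left out the call held without saline replicate 3 or 6 h replicate 2 and not in the other 9 runs (adjusted p between 0.00627 and 0.169). Arc, an activity-induced regulator of synaptic receptors, had log2 signals of 2.18, 2.37 and 3.04 at 1 h, against 2.39, 2.24 and 2.66 with saline, and the groups overlapped (log2 change 0.11, adjusted p = 0.883). The effectors' median lay 0.08 above that of all rows. Among 15 feedback inhibitors of MAP kinase signalling, Spry4 rose, with 0.041, 0.0016 and 0.012 at 1 h, against -0.86, -0.72 and -0.76 with saline (log2 change 0.80, SE 0.12, adjusted p = 0.0207). Its 1 h libraries were almost equal, but the call was lost without any of the 6 libraries compared (up to 0.104). Of 15 SRF and YAP targets, 0 passed by limma and 4 were higher at an unadjusted p under 0.05; Lats2, a Hippo pathway kinase, had the smallest p (log2 change 0.40, adjusted p = 0.0742).

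**Figure D2:**
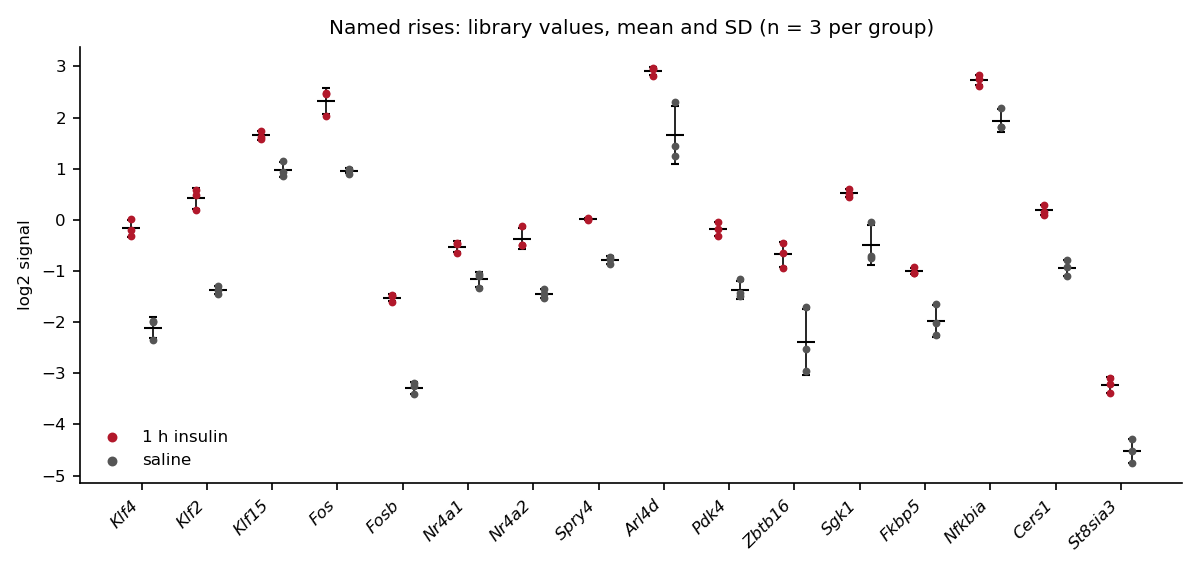
Log2 signal (vertical axis) of 16 genes that rose, in the 3 libraries at 1 h after insulin (red, left of each pair) and the 3 saline libraries (grey, right), with the mean and SD of each group. No pair overlaps; Zbtb16, Arl4d and Sgk1 have the widest saline spread of the 16.

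Of 23 glucocorticoid responsive genes 6 rose and 0 fell. The count was 1 without 1 h replicate 1 or 2 or saline replicate 1 or 2 and 3 with the 2 groups alone. Pdk4, the kinase that inactivates pyruvate dehydrogenase and so restrains glucose oxidation, had log2 signals of -0.32, -0.17 and -0.044 at 1 h, against -1.44, -1.49 and -1.16 with saline. The groups did not overlap and the call held without each library in turn (log2 change 1.18, SE 0.15, adjusted p = 0.0086). Zbtb16, a transcriptional repressor, stood at -0.93, -0.65 and -0.44 at 1 h, against -2.53, -2.96 and -1.69 with saline (log2 change 1.72, SE 0.32, adjusted p = 0.0445). Its saline libraries were widely spread, and the call held only without saline replicate 3 or 6 h replicate 2 among the 11 runs that left out 1 library (adjusted p of up to 0.165). Sgk1, a steroid-induced kinase of the AKT type, stood at 0.45, 0.61 and 0.50 at 1 h, against -0.74, -0.71 and -0.038 with saline (log2 change 1.01, SE 0.16, adjusted p = 0.0237). Saline replicate 3 was again the nearest to the 1 h libraries.

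Fkbp5, a co-chaperone that dampens the glucocorticoid receptor, had log2 signals of -1.03, -0.93 and -1.04 at 1 h, against -2.02, -2.25 and -1.65 with saline (log2 change 0.98, SE 0.15, adjusted p = 0.0207). Nfkbia, the inhibitor that holds NF-kappaB in the cytoplasm, stood at 2.82, 2.75 and 2.62 at 1 h, against 1.81, 1.81 and 2.20 with saline (log2 change 0.79, SE 0.13, adjusted p = 0.0233). Neither pair of groups overlapped. The calls of Fkbp5 and Nfkbia were lost without 1 h replicate 1 or 2 or saline replicate 1 or 2 (adjusted p of up to 0.101 and 0.106), and that of Sgk1 also without 1 h replicate 3 (up to 0.104). Klf15, described above, is the sixth member. Over the 23 genes, 15 had every 1 h library above every saline library and 1 had every one below, and the median lay 0.68 above that of all rows. The fall side was Mt2, a metallothionein named after its values were seen (log2 change -0.39, SE 0.09, adjusted p = 0.0908).

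Genes of insulin signalling itself did not pass. Of 22 measured receptors, substrates and ligands of insulin and IGF, 0 passed by limma, with 2 higher and 1 lower at an unadjusted p under 0.05. Insr, the insulin receptor, had log2 signals of -0.89, -0.81 and -0.64 at 1 h, against -0.70, -0.82 and -0.58 with saline, overlapping groups (log2 change -0.08, adjusted p = 0.815). Irs2, an adaptor whose gene FOXO factors drive in liver, had 1.5, 1.41 and 1.56 at 1 h, against 1.23, 1.17 and 1.09 with saline (log2 change 0.33, adjusted p = 0.423). These groups were apart without passing. Of 34 genes of PI3K, AKT and mTOR signalling, 0 passed, with 1 higher and 4 lower at an unadjusted p under 0.05. Of 22 FOXO targets outside the stress lists, 0 passed, with 3 higher and 1 lower unadjusted; Trib1, a pseudokinase, had the smallest p (log2 change 0.75, SE 0.16, adjusted p = 0.0606) and passed without 6 h replicate 2. The median log2 changes of these 3 lists lay 0.06, 0.08 and 0.16 above that of all rows; the first lay below it without 1 h replicate 3.

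Pdk4 was the only member past the threshold among 14 genes of pyruvate dehydrogenase control and among 20 PPAR targets. The other pyruvate dehydrogenase kinases, Pdk1, Pdk2 and Pdk3, had overlapping groups, with log2 changes of -0.02, 0.06 and 0.06. Fatty acid oxidation, by which mitochondria burn the substrate that the study's title names, had 0 of 33 members past the threshold by limma, with 2 higher and 5 lower at an unadjusted p under 0.05 and a median 0.01 below that of all rows (above it without 1 h replicate 3 or saline replicate 2). Cpt1a, the gate for fatty acids into mitochondria, stood at -1.66, -1.49 and -1.51 at 1 h, against -1.45, -1.61 and -1.45 with saline. Those groups overlapped (log2 change -0.05, SE 0.13, adjusted p = 0.887). Cpt2, the inner-membrane partner of Cpt1a, had a log2 change of -0.07 (adjusted p = 0.829), Acadvl, which starts the oxidation of very long chains, -0.15 (0.458), and Hadha, of the trifunctional protein, -0.20 (0.284). Ppargc1a, a coactivator of mitochondrial genes, had the smallest p of the list (log2 change -0.71, SE 0.15, adjusted p = 0.0625) and passed without 1 h replicate 3 (0.0407).

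Other lipid lists were likewise near the median of all rows. Of 20 genes of fatty acid uptake and activation, 23 of synthesis and desaturation, 25 of lipid droplets and lipases and 37 of cholesterol handling, 0 passed by limma. At an unadjusted p under 0.05 these lists held 0 and 4, 1 and 5, 0 and 2, and 1 and 1 members higher and lower. Fasn, the fatty acid synthase, had log2 signals of 3.38, 3.46 and 3.53 at 1 h, against 3.30, 3.15 and 3.22 with saline (log2 change 0.23, adjusted p = 0.573). Its groups were narrowly apart. Pnpla3, a lipase of lipid droplets, had the smallest p of its list (log2 change -0.65, SE 0.13, adjusted p = 0.0571). The 12 lactate and ketone body genes held 0 calls, with 1 lower at an unadjusted p under 0.05. Angptl4, a secreted inhibitor of lipoprotein lipase that PPAR and glucocorticoid receptors drive, had overlapping groups (log2 change -0.31, adjusted p = 0.679).

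Sphingolipid genes held 2 rises among 34. Cers1, the ceramide synthase of neurons that makes C18 ceramide, had log2 signals of 0.16, 0.10 and 0.30 at 1 h, against -1.10, -0.93 and -0.79 with saline. The groups did not overlap (log2 change 1.13, SE 0.20, adjusted p = 0.035). St8sia3, a sialyltransferase of brain gangliosides and glycoproteins, stood at -3.21, -3.09 and -3.39 at 1 h, against -4.52, -4.29 and -4.76 with saline, again without overlap (log2 change 1.29, SE 0.18, adjusted p = 0.0119). The call of Cers1 was lost without any of the 6 libraries compared and without 6 h replicate 3 (adjusted p of up to 0.15); that of St8sia3 was lost without 1 h replicate 1 or 2 or saline replicate 1 or 3 (up to 0.0656). The other 32 members did not pass, 7 of them were lower at an unadjusted p under 0.05, and the list's median lay 0.01 below that of all rows (above it without 1 h replicate 1 or saline replicate 3).

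Carbohydrate and energy lists held 2 small falls. Eno1, the glycolytic enolase, had log2 signals of 2.76, 2.71 and 2.75 at 1 h, against 3.03, 3.05 and 3.00 with saline (log2 change -0.29, SE 0.05, adjusted p = 0.0365), 1 of 38 genes of glycolysis and the tricarboxylic acid cycle. The mouse genome holds a near-identical copy of Eno1, and how reads were shared between them is not given, so the row is uncertain. Of these 38 genes, 9 were lower and 0 higher at an unadjusted p under 0.05 by limma, where 12.9% of all rows were lower. In 19 of the 38 every 1 h library lay below every saline library, and in 0 above. The share wholly below was larger than the 21.2% of all rows. The list's median lay 0.004 above that of all rows and changed side in 4 of 19 settings. Epm2a, laforin, a phosphatase that acts on glycogen, stood at -2.59, -2.63 and -2.59 at 1 h, against -2.08, -2.14 and -1.97 with saline (log2 change -0.55, SE 0.11, adjusted p = 0.0482), 1 of 21 glycogen genes. Both calls were lost in every run that left out 1 library except 6 h replicate 2 (adjusted p of up to 0.152 and 0.193), and with the libraries shifted to a common median. Slc2a1, the glucose transporter of the blood-brain barrier and astrocytes, did not pass (log2 change 0.65, SE 0.14, adjusted p = 0.0684), but did without 6 h replicate 2 (0.0191). Of 19 hypoxia responsive genes 0 passed, with 3 higher at an unadjusted p under 0.05. Ddit4, an inhibitor of mTOR signalling, had the smallest p of that list (log2 change 0.68, SE 0.14, adjusted p = 0.0534) and passed without 6 h replicate 2 (0.0401), with the lowest 60% of rows left out (0.0423), with complete rows alone (0.0476) and with the common median (0.0441). Of 71 nuclear oxidative phosphorylation genes 0 passed, with 0 higher and 18 lower unadjusted, where 12.9% of all rows were lower. In 34 of the 71 every 1 h library lay below every saline library and in 5 above, against 21.2% and 6.51% of all rows. The median of the 71 lay 0.02 below that of all rows (above it without saline replicate 2). Of 13 mitochondrially encoded genes 0 passed, adjusted or not. Of 71 ribosomal protein genes 0 passed, with 1 higher and 7 lower unadjusted.

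Of 24 cytosolic heat shock genes 0 passed by limma, with 6 higher and 0 lower at an unadjusted p under 0.05, 7 with every 1 h library above every saline library, and a median 0.24 above that of all rows. Dnajb1, a co-chaperone of HSP70, had the smallest p, at 3.56, 4.12 and 3.23 at 1 h, against 2.72, 2.69 and 2.57 with saline (log2 change 0.98, SE 0.20, adjusted p = 0.0562). Its groups did not overlap, and it passed without 1 h replicate 3 (0.0317) and with the lowest 60% of rows left out (0.0448). Hspa1b, the inducible HSP70 gene named after its values were seen, stood at 3.19, 4.63 and 1.79 at 1 h, against 0.70, 0.57 and 0.94 with saline. The groups were apart, but the 1 h libraries were widely spread (log2 change 2.47, SE 0.68, adjusted p = 0.125). Of 28 genes of the endoplasmic reticulum stress response 0 passed, with 8 higher and 1 lower unadjusted, 11 with every 1 h library above every saline library and 1 with every one below, and a median 0.24 above that of all rows. Creld2, a secreted chaperone that this response induces, had the smallest p (log2 change 0.60, SE 0.13, adjusted p = 0.0712) and passed without 1 h replicate 3 (0.0407) and with the common median (0.0458). Of 22 clock genes 1 fell, Rora, a nuclear receptor that activates the clock gene Arntl, at 0.28, 0.29 and 0.17 at 1 h, against 0.91, 0.80 and 0.84 with saline (log2 change -0.60, SE 0.10, adjusted p = 0.0321), a call lost without any of the 6 libraries compared (up to 0.147). Of 23 NF-kappaB and inflammatory genes, Nfkbia alone rose.

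**Figure D3:**
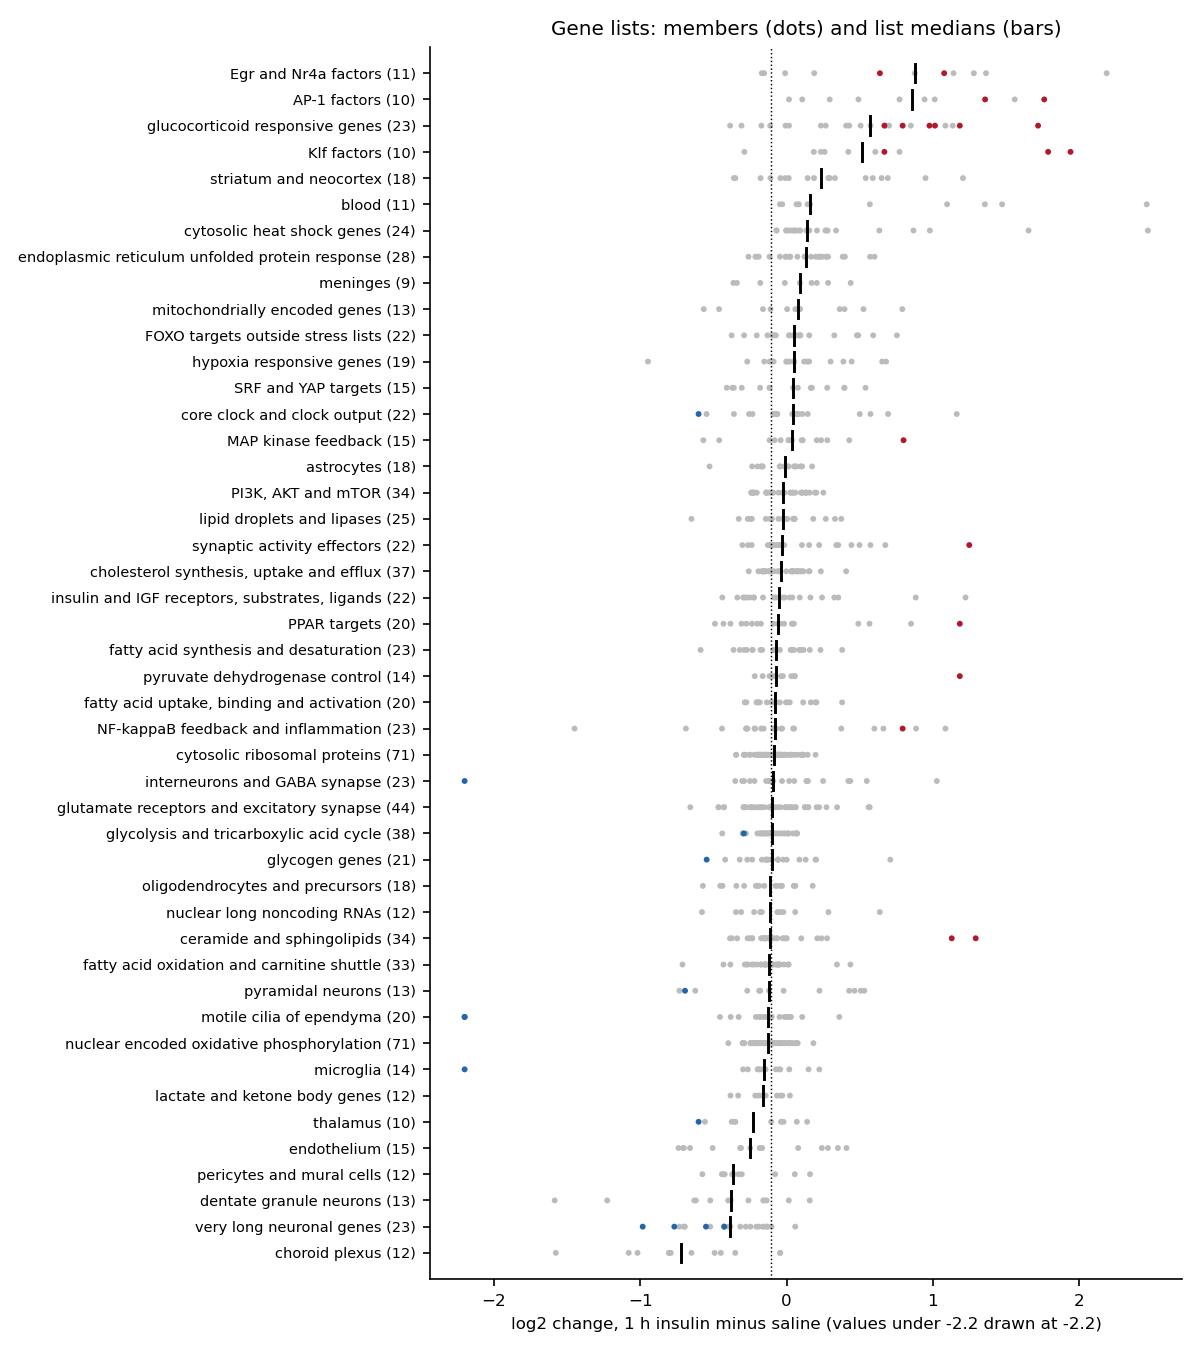
Log2 change (1 h insulin minus saline, horizontal axis) of the measured members of 46 gene lists, with the number of members in brackets, red for rises, blue for falls and grey for members not past the threshold; black bars are list medians. The dotted line is the median of all rows, -0.11; the Egr and Nr4a, AP-1, glucocorticoid and Klf lists have medians above 0.5.

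The remaining named rises were outside the lists. Trp53i11, a p53-inducible gene, had log2 signals of 0.61, 0.70 and 0.58 at 1 h, against -0.13, -0.24 and -0.31 with saline (log2 change 0.85, SE 0.13, adjusted p = 0.0215). Tmem200b had a log2 change of 0.81 (SE 0.15, adjusted p = 0.0371), and Mxd4, a MAX partner that opposes MYC, 0.51 (SE 0.07, adjusted p = 0.012). All 3 calls were lost without 1 h replicate 1 or 2 or any saline library, at adjusted p of up to 0.101, 0.139 and 0.0657; Tmem200b was also lost without 1 h replicate 3 or either 15 min library. The 36 rises had a median fold of 1.75, with 12 over 2-fold and 0 over 4-fold. The number of rises was 4 without 1 h replicate 1, 5 without 1 h replicate 2, 7, 10 and 16 without saline replicate 1, 2 and 3, and 98 without 6 h replicate 2.

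The 209 falls covered a range of sizes: 111 exceeded 2-fold, 42 exceeded 4-fold and 24 exceeded 8-fold, a limit used below for description alone, and 109 carried names of predicted genes or clones. The largest fall among named genes was Il31ra, a cytokine receptor subunit, at 1.05, 1.19 and 0.36 at 1 h, against 6.26, 4.96 and 5.17 with saline (log2 change -4.60, SE 0.44, adjusted p = 0.00205). Cd44, the hyaluronan receptor, stood at -1.17, -1.53 and -1.80 at 1 h, against 3.81, 2.42 and 2.74 with saline (log2 change -4.49, SE 0.48, adjusted p = 0.00373). In both genes the saline library of replicate 1 was more than 1 unit above the other saline libraries, and all 1 h libraries were far below.

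Lars2, the leucyl-tRNA synthetase of mitochondria, had log2 signals of 1.68, 1.93 and 1.16 at 1 h, against 6.82, 5.53 and 5.82 with saline (log2 change -4.47, SE 0.50, adjusted p = 0.00432). Gphn, gephyrin, the scaffold of inhibitory synapses, stood at 0.66, 0.89 and 0.48 at 1 h, against 5.32, 4.06 and 4.25 with saline (log2 change -3.87, SE 0.42, adjusted p = 0.00373). The ordering of the saline libraries was the same in both genes: replicate 1, then 3, then 2. In RefSeq on GRCm38.p6, Gphn spans 78217325 to 78684772 of chromosome 12. Dnah7b and Rsph3b, both of the axoneme of motile cilia and both with close paralogs, fell by 3.98 and 3.72 on the log2 scale (adjusted p = 0.00346 and 0.00205). Sspn, a muscle membrane protein, fell by 3.36, Gnb1l, a WD-repeat protein, by 3.35, and Jarid2, a partner of Polycomb repressive complex 2, by 3.04 (adjusted p = 0.00356, 0.0068 and 0.00205).

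The 18S ribosomal RNA row fell as well. Rn18s-rs5 had log2 signals of 10.19, 10.51 and 10.22 at 1 h, against 16.00, 13.05 and 13.79 with saline (log2 change -3.97, SE 0.65, adjusted p = 0.0254). Its saline order, replicate 1, then 3, then 2, was that of 14 of the other 23 falls over 8-fold (60.9%), of 30 of the 185 smaller falls (16.2%) and of 17.4% of all rows tested. Saline replicate 1 was the highest saline library in 22 of those 23, with the median saline SD of all 24 at 0.68 and the median 1 h SD at 0.32. Without saline replicate 1 the median log2 change of the 24 was -3.40, against -3.97 with it. What part ribosomal RNA had in these rows was not tested. The call of Rn18s-rs5 was lost without any 1 h library or saline replicate 3 (adjusted p of up to 0.109) and its size is limited by the shared maximum. The calls of Il31ra, Cd44, Lars2, Gphn, Dnah7b, Rsph3b, Sspn, Gnb1l and Jarid2 held without each library in turn.

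Camk1d, a calcium-dependent kinase, Kcnip1, a subunit of A-type potassium channels, and Arhgap21, a GTPase activating protein, fell too. Camk1d had log2 signals of -0.72, -0.77 and -0.65 at 1 h, against 2.99, 1.97 and 2.04 with saline (log2 change -3.05, SE 0.27, adjusted p = 0.00205). Kcnip1 stood at -2.22, -2.13 and -2.22 at 1 h, against 1.37, 0.35 and 0.41 with saline (log2 change -2.90, SE 0.27, adjusted p = 0.00205). Arhgap21 stood at 1.56, 1.67 and 1.66 at 1 h, against 4.92, 3.94 and 4.11 with saline (log2 change -2.70, SE 0.26, adjusted p = 0.00205). Saline replicate 1 was again the highest in each, and the calls held without each library in turn.

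Some falls were of genes with low signal. Hsd3b4, of the hydroxysteroid dehydrogenase family, had log2 signals of -5.53, -6.09 and -6.03 at 1 h, against -3.43, -3.43 and -3.14 with saline (log2 change -2.55, SE 0.22, adjusted p = 0.00205). Mrgpra3, an itch receptor of sensory neurons, had values of -7.92 and -7.60 in 1 h replicates 1 and 3 and none in replicate 2, against -4.28, -5.08 and -4.51 with saline. The fit used those 2 values (log2 change -3.14, SE 0.36, adjusted p = 0.00853). Tbx20, a T-box factor of the heart and motor neurons, fell by 3.96 on the log2 scale (SE 0.57, adjusted p = 0.0146), a call lost without 1 h replicate 1 or 2 or saline replicate 3 (up to 0.0674). Hsd3b4 and Mrgpra3 belong to families of similar genes, between which reads may have been split. Over all rows tested the median log2 change ran from -0.25 in the lowest of 10 signal classes to -0.03 in the highest.

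Marker lists of other cell types were read next. In bulk tissue, fewer cells of a type and less RNA per cell cannot be told apart. Cx3cr1 and Tmem119, defining markers of microglia, did not pass, with log2 changes of 0.15 and 0.22. Tmem119 had the highest change of the 14 microglial markers tested. Of the 14, 0 were higher and 3 lower at an unadjusted p under 0.05 by limma. In 1 every 1 h library lay above every saline library, and in 4 every one lay below. The median of the 14 microglial markers lay 0.05 below that of all rows (above it without 1 h replicate 1 or saline replicate 2). Of 23 interneuron and GABA synapse genes only Gphn passed, and of 20 genes of motile cilia only Dnah7b and Rsph3b. Dnah7a, the paralog of Dnah7b, did not pass (log2 change -0.16, adjusted p = 0.781), nor did Foxj1, the master regulator of motile cilia (log2 change -0.01). Of 18 astrocyte markers 0 passed, with 3 lower at an unadjusted p under 0.05; Gpc5, a proteoglycan, had the smallest p (log2 change -0.53, adjusted p = 0.148).

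Other cell and region lists held 1 more call each at most. Cpne4, a copine of CA3 pyramidal cells, fell (-2.08, -2.15 and -2.04 at 1 h, against -1.42, -1.46 and -1.32 with saline; log2 change -0.69, SE 0.12, adjusted p = 0.0337), a call lost without any of the 6 libraries compared or either 15 min library (up to 0.15). Of the 13 dentate granule markers, 18 of oligodendrocytes, 15 of endothelium and 12 of pericytes, 0 passed, with 3, 4, 5 and 4 lower and none higher at an unadjusted p under 0.05. The summed signal of the pericyte list was 3.26, 3.59 and 3.35 at 1 h, against 3.75, 3.67 and 3.75 with saline. That of the dentate list was 3.47, 3.35 and 3.41 at 1 h, against 3.72, 3.54 and 3.77 with saline. Neither overlapped, as in 21.2% of all rows tested that were wholly lower at 1 h. The sums overlapped for endothelium (4.80, 4.90 and 5.04 at 1 h, against 5.37, 5.14 and 5.02). They also did for oligodendrocytes (7.76, 8.08 and 8.13 at 1 h, against 7.94, 7.93 and 8.14). Choroid plexus markers varied within the 1 h group, with summed signals of 2.37, 4.63 and 6.58 at 1 h, against 6.06, 5.47 and 5.71 with saline, and 0 of 12 passed, adjusted or not. Of 11 blood genes 0 passed, and Ngp, a neutrophil granule protein, was the 1 member higher at an unadjusted p under 0.05 (log2 change 2.46, SE 0.80, adjusted p = 0.18). Summed signals of striatum and neocortex markers were 3.62, 3.51 and 4.94 at 1 h, against 3.57, 3.57 and 3.95 with saline. These overlapped, 0 of the 18 passed, and the list's median lay 0.34 above that of all rows. Of 10 thalamus markers only Rora, described above, passed. The parts of tissue makeup in the changes described above were not tested.

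Of 23 very long neuronal genes 4 fell and 0 rose, and the median lay 0.28 below that of all rows. The count was 1 with the common median, without 1 h replicate 1 or 2 or without any saline library, and 2 after cyclic loess, with the 2 groups alone and without 1 h replicate 3 or either 15 min library. Rbfox1, a splicing factor of neurons whose gene spans 1527.7 kb, had log2 signals of 0.17, 0.38 and 0.37 at 1 h, against 1.29, 1.16 and 1.41 with saline. The groups did not overlap and the call held without each library in turn (log2 change -0.98, SE 0.11, adjusted p = 0.00468). Auts2, a nuclear regulator of neuronal development, had a log2 change of -0.77 (SE 0.13, adjusted p = 0.0294), Kcnip4, a potassium channel subunit, -0.55 (SE 0.08, adjusted p = 0.018), and Ctnna2, the neuronal alpha-catenin, -0.43 (SE 0.08, adjusted p = 0.0365). Without any of the 6 libraries compared the calls of Kcnip4 (up to 0.0906) and Ctnna2 (up to 0.153) were lost, and without any but 1 h replicate 3 that of Auts2 (up to 0.137). Auts2 and Ctnna2 were also lost without either 15 min library, Ctnna2 without 6 h replicate 3, and all 3 with the shift to a common median.

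Protein-coding rows were also sorted by the span of the gene in RefSeq. Rows up to 10 kb held 0.34% falls, 10 to 30 kb 0.40%, 30 to 100 kb 0.51%, 100 to 200 kb 0.84%, 200 to 500 kb 2.81% and above 500 kb 7.25% (15 of 207). No gene above 200 kb rose, among 712 rows of 200 to 500 kb and 207 above. As 0.186% of protein-coding rows rose, these are too few rows to tell 0 from that share. The median log2 change was -0.07 up to 10 kb and -0.32 above 500 kb. Relative to rows up to 10 kb, the median signal of the longest genes was -0.29, -0.05 and 0.02 in the 1 h libraries, against 0.12, -0.03 and 0.35 in the saline libraries, and these overlapped. The difference between longest and shortest genes was -0.25, and it was -0.12 without saline replicate 3 and -0.16 without 1 h replicate 1; the share of falls above 500 kb was 1.45% with the common median and 3.86% after cyclic loess. It was 0.48% and 2.42% without 1 h replicate 1 and 2, 0.97%, 3.38% and 0.97% without saline replicate 1, 2 and 3, 4.83% without either 15 min library and 11.11% without 6 h replicate 2.

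Of 3791 long noncoding RNA rows 38 fell (1.00%, against 0.761% of all rows) and 0 rose. Relative to short protein-coding rows their median signal was -0.08, -0.09 and -0.03 in the 1 h libraries, against 0.12, 0.02 and 0.23 in the saline libraries, with no overlap. The difference of medians, -0.185 (lncRNA minus short coding), was -0.06 after cyclic loess and -0.12 with the lowest 60% of rows left out. In rows with a value in only a few libraries, the lowest deposited value followed the whole gene span, introns included, more closely than exon length. Over 940 such rows with a span over 3 times their exons, it had a Pearson r of -0.853 with log2 span, across rows. With log2 exon length r was -0.535 in the same rows. Rows with a value in most libraries were not used for this. Of 12 abundant nuclear noncoding RNAs 0 passed, with 3 lower at an unadjusted p under 0.05, and Malat1 had a log2 change of -0.04.

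**Figure D4:**
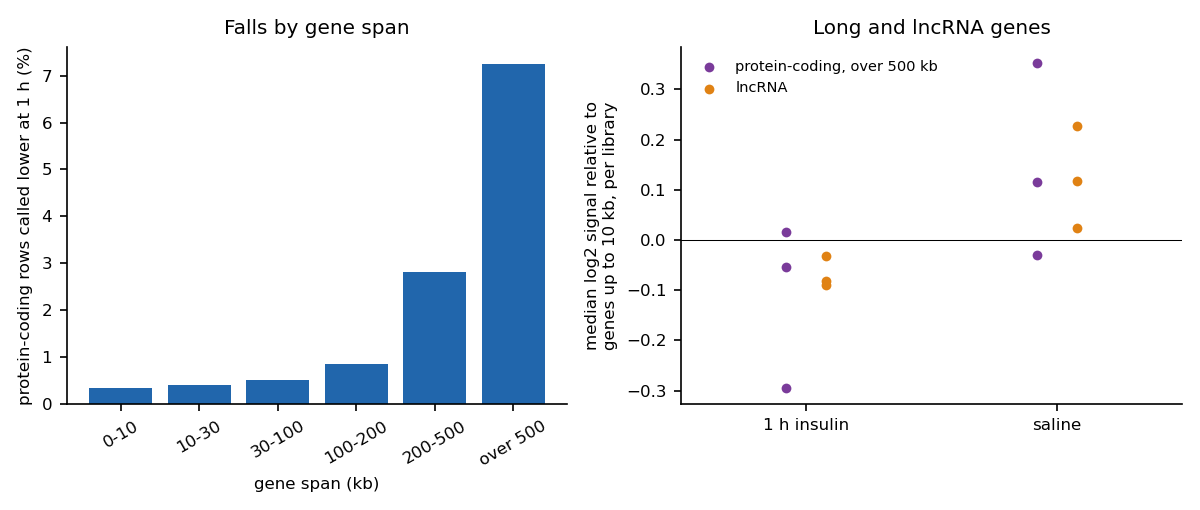
Left, the share of protein-coding rows that fell at 1 h (vertical axis, percent) by gene span in kb; right, the median log2 signal of protein-coding genes over 500 kb (purple) and of lncRNA rows (orange) relative to genes up to 10 kb, in each 1 h and saline library. The share of falls is 0.34% up to 10 kb and 7.25% above 500 kb; the library values overlap for the longest genes and do not for lncRNA rows.

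Insulin at 1 h was also set against insulin at the other times; the saline libraries do not enter these differences but share in the estimate of the spread. Between 1 h and 15 min, 0 of 26831 rows passed by limma (0%), with 628 higher and 280 lower at an unadjusted p under 0.05. Klf4 averaged -0.17 ± 0.17 at 1 h (SD, n = 3) and had -0.27 and -0.14 at 15 min; Fos averaged 2.32 ± 0.26 and had 2.64 and 2.55 at 15 min. Against the same saline libraries, the log2 changes of Klf4, Klf2, Fos and Fosb at 15 min were 1.91, 2.20, 1.64 and 1.80, and those at 6 h were 0.48, 0.72, 0.12 and 0.82, with 64 of 26871 rows past the threshold at 15 min (0.238%) and 0 of 27505 at 6 h (0%; 1912 at an unadjusted p under 0.05). Median log2 changes of the 36 rises were 0.71 (15 min), 0.80 (1 h) and 0.34 (6 h), and those of the 24 largest falls -3.54, -3.97 and -2.50. These comparisons share the saline libraries.

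From 1 h to 6 h, 3 of 27445 rows passed (0.0109%), 1 higher (0.00364%) and 2 lower (0.00729%) at 6 h, with 2455 higher and 596 lower at an unadjusted p under 0.05. The count was 0 without 1 h replicate 1 or 2, saline replicate 1 or 6 h replicate 1 or 3, and 1 without 6 h replicate 2. Klf4 had -1.69, -1.48 and -1.72 at 6 h (6 h minus 1 h, log2 -1.46, SE 0.13, adjusted p = 0.0144), and Fos 0.90, 1.18 and 1.17 (log2 -1.24, SE 0.12, adjusted p = 0.0144). Both were nearer to saline than to 1 h at 6 h. Gm36849, a predicted gene, had -3.58, -3.36 and -3.36 at 6 h, against -5.63, -5.52 and -5.54 at 1 h (log2 2.13, SE 0.21, adjusted p = 0.0144). Pdk4 had a 6 h minus 1 h log2 difference of -1.01 (adjusted p = 0.127) and Nr4a2 of -1.02 (0.135). Cers1 had -0.12, 0.59 and 0.14 at 6 h, with a difference of 0.02 from 1 h (adjusted p = 0.988).

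**Figure D5:**
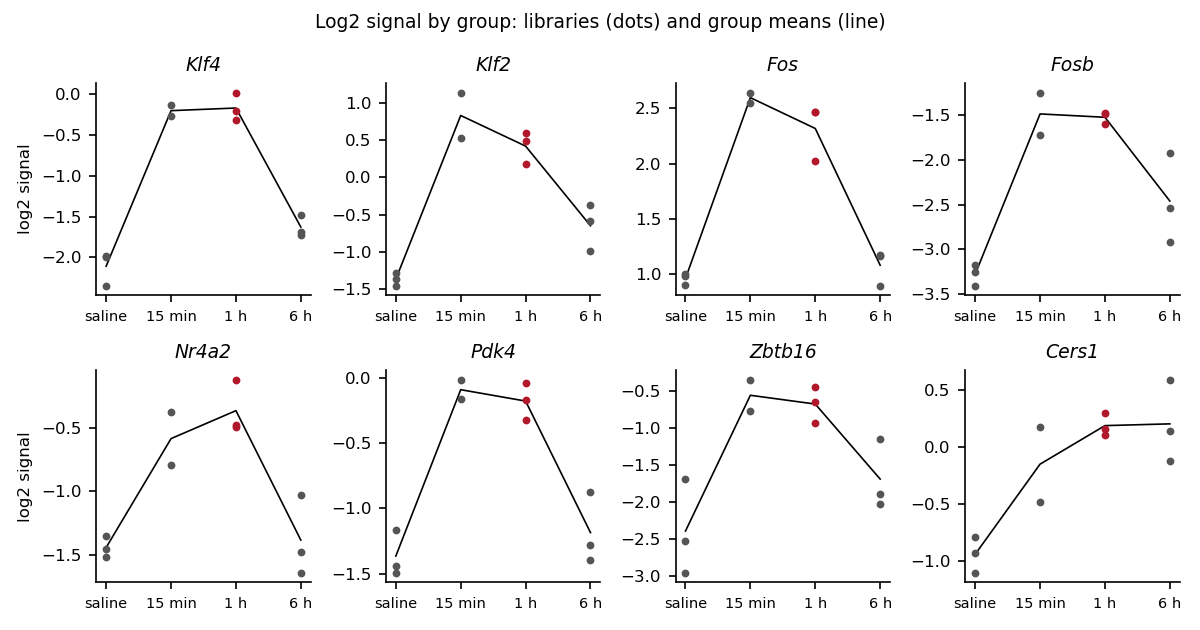
Log2 signal (vertical axis) of 8 genes that rose at 1 h, in saline, 15 min (n = 2), 1 h (red) and 6 h libraries (n = 3 each otherwise), with a line through the group means. Klf4 and Fos are nearer to saline than to 1 h at 6 h, and the 6 h values of Cers1 lie around those at 1 h.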

How the data were processed

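RNA of mouse hippocampus was sequenced as stranded total RNA, read from both ends, per the labels' protocols. The authors deposited 1 log2 signal for each gene symbol and library, with missing entries. Partek 6.7, bcl2fastq and GRCm38 appear in the submitters' processing notes; aligner, counter and use of strand: not given in the sources used here, so antisense pairs cannot be told apart. Read from the values themselves, the authors' log2 signals have 1 distribution in all libraries (shared median -3.20), as quantile normalization gives. Judged from rows with a value in only a few libraries, they run per length of the gene. Read counts could not be recovered, so no counting interval is given. Because missing entries are not numbers, the column was recorded as another unit and treated as log2.

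In R 4.3.3, limma 3.58.1 fitted 4 group means to all 11 libraries, with a mean-variance trend and two-sided moderated tests, on 27721 rows left after the lowest 40% by mean (under -8.66) were removed; 1950 of these had a missing value. A row needed 2 values in each group compared, and p-values were adjusted by Benjamini-Hochberg at 0.05 over all rows. A fold is 2 to the power of the log2 difference. The fit was checked on simulated data. RefSeq GRCm38.p6 matched 37292 of 46202 symbols and 182 of 245 calls; 72.2% of falls matched, too few for a check of span over all falls, so span was read over protein-coding rows.

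Named genes were the 15 largest and 8 smallest-p rises and falls, list members past the threshold or with the smallest p of a list without one, and a fixed panel; predicted names were passed over, and other genes were named after their values were seen. Members and lists were chosen with earlier results of these data known. No 2 libraries were identical. Some genes are not reported here. Alternatives covered filters, scaling, the 2 groups alone, the trend, a replicate block and each library left out.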

Additional observations from a re-analysis of the deposited data

Results flagged for a closer look

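Of the rows tested between insulin times, 3 differed between 6 h and 1 h by a direct limma test of that difference, and so have unlike changes from saline at the 2 times. Klf4 had a 6 h minus 1 h log2 difference of -1.46 (SE 0.13, adjusted p = 0.014), lower at 6 h in 3 of 3 libraries. Fos had a difference of -1.24 (SE 0.12, adjusted p = 0.014), again lower in 3 of 3. Gm36849 had a difference of 2.13 (SE 0.21, adjusted p = 0.014), higher in 3 of 3. Groups of 3 libraries are too small for a test of single libraries that stand out.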

How the results depend on the processing

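The 245 calls at 1 h against saline numbered 136 after cyclic loess (96 falls), 143 with the 2 groups alone (94 falls) and 201 with a common median (94 rises, 107 falls). With a replicate block they numbered 161, of which 18 were rises. Deviations of same-numbered 1 h and saline libraries correlated at 0.029, 0.065 and 0.236, and the numbers were not taken to pair them. Among the saline libraries, 1 h replicates 2 and 3 correlated best with the library of their own number. For 1 h replicate 1 it was saline replicate 2 (0.147). The 3 calls at 6 h minus 1 h were 0 with the 2 groups alone and 0 with the replicate block. Leaving out 1 library gave 42 to 491 calls, 4 to 98 rises, 38 to 393 falls and 0 to 4 calls at 6 h minus 1 h. The cause of these shifts was not tested. Of 45 named genes past the threshold, 21 kept it in every run that left out 1 library, and none changed sign in any setting run. The 1 h minus 15 min count was 0 in every setting run. Depth is unknown, and groups of 2 or 3 libraries limit precision.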

Other observations

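Receptor families of the nose and of sensory neurons, noticed after their values were seen, were measured at low signal and lay below the median of all rows. Of 79 olfactory receptor rows 1 fell and 0 rose (median log2 change -0.40). Of 65 vomeronasal receptor rows 3 fell and 0 rose (-0.43), and of 11 Mas-related receptor rows 2 fell and 0 rose (-1.03). Among all rows tested 0.761% fell and 0.131% rose, the shares against which every family count here is to be read. The families are too small to tell 0 rises, or 1 fall among 79, from those shares. Rows with a mean signal under -3.28 had class medians of -0.25 to -0.20. Whether the receptor families differ from other rows of like signal was not tested. Of 7 Hsd3b rows 2 fell. Histone genes, whose members share near-identical sequence, held 2 rises among 67, Hist1h4b (log2 change 0.61, SE 0.10, limma adjusted p = 0.028) and Hist1h2ab (0.74, SE 0.14, adjusted p = 0.0458).

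Some falls were neighbours on a chromosome. Only rows past the threshold were joined, within gaps of up to 100 kb, so rows between them that did not pass are not shown. Most rows past the threshold were falls. On chromosome 3 (98445675 to 98688285, GRCm38.p6) 5 such rows were falls: Gm4450, Hsd3b4, Gm9678, Hsd3b5 and Gm12400. On chromosome 11 (33211794 to 33513784) Ranbp17 fell and Anp32-ps rose. On chromosome 7, Mrgpra2b and Mrgpra3 fell together (47463807 to 47601372), as did C230079O03Rik and Gm36849 (136332216 to 136356725). Rows with a value in every 1 h library and in no saline library numbered 67, and rows with the reverse pattern 188.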
